A study of Mus musculus with 2 samples.

Results

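Translation initiation and elongation factors were followed in mouse liver after oral titanium dioxide nanoparticles. Genes were taken whose symbol begins with Eif and a digit, or with Eef1 or Eef2, leaving out the eIF2 alpha kinases (symbols beginning with Eif2ak) and symbols with a hyphen. This gave 64 genes, of which 56 averaged 1 FPKM or more across NP and Control and are described here, among 37146 genes in the tables and 10658 at that level. FPKM are fragments scaled to the length of a transcript and to all mapped fragments. The first group, NP, was CD-1 mice, an outbred strain, given 50 mg of TiO2 nanoparticles per kg body weight per day by mouth as a suspension sonicated for 30 min. The Control group was CD-1 mice given the same volume of phosphate-buffered saline. Each group was represented by 1 liver RNA-seq library. Neither the labels nor the files say how many animals stand behind a library, of which age and sex, or for how many days they were treated. The title of the series concerns endoplasmic reticulum stress and plasma glucose. The comparison made here asks how far transcripts of the translation machinery differed between the libraries.

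Initiation factors bring the initiator tRNA, the messenger RNA and the small ribosomal subunit together and locate the start codon. Elongation factors then deliver aminoacyl-tRNAs and move the ribosome along the message. In endoplasmic reticulum stress the kinase PERK phosphorylates the alpha subunit of eIF2, which slows the exchange of its nucleotide by eIF2B and so lowers initiation. That control acts on proteins, whereas the values below are transcript levels.

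With 1 library per group, no difference has a replicate check, and neither a test nor a p-value could be had. The statements therefore describe these 2 libraries. Intervals in parentheses are the 95% intervals that Cufflinks gives for the estimate within a library, and they hold no spread between animals. Members past a fixed size of 1.5-fold, on the scale of log2((NP + 1)/(Control + 1)), are called higher or lower. Fold values given for single genes are ratios of plain FPKM and so lie further from 1 than the ratio used for the call. NP was the more deeply covered library, with 2.93 units of read coverage per FPKM against 2.29 in Control, a ratio of 1.28. The distance from a member's value to its upper limit had a median of 9.95% of the value in NP and 10.4% in Control.

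The factors differed little as a set. Their summed FPKM was 4304 in NP and 4598 in Control, a ratio of 0.936, or 0.680% of all FPKM in NP and 0.725% in Control. The median log2 ratio was 0.01 over the 56 members, with quartiles of −0.14 and 0.12, against −0.03 over the 10658 genes, with quartiles of −0.20 and 0.14. In all, 29 members lay above 0 and 27 below. Being past 1.5-fold was reached by 2 members in the higher direction, 3.57% of members against 3.67% of all 10658 genes. In the lower direction it was reached by 5, or 8.93% against 5.79% of all genes. Either way there were 7, or 12.5% against 9.46%. With plain FPKM in place of FPKM + 1 the same 7 members were past 1.5-fold. All genes then stood at 5.38% higher, 8.3% lower and 13.7% either way. The share of higher members was near the background. The share of lower members was above it on FPKM + 1 and near it on plain FPKM. It rests on 5 genes, of which Eif2b2 and Eef1g were no longer past the rule in protein-coding rows alone.

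Intervals were separate between the libraries for 18 members, 5 higher in NP and 13 lower, and overlapped for 38. The separate share was 8.93% higher against 7.65% of all genes, and 23.2% lower against 9.51%. The members are more abundant than most genes, with a median of 31.5 FPKM against 8.18 FPKM over all genes, and an abundant gene has a narrower interval. The part of abundance in the share of 23.2% was not tested. The count of separate lower members was 10 instead of 13 when NP was scaled to the same median ratio or upper quartile, in protein-coding rows alone, and in each gene's row of highest mean FPKM. Under either scaling, the members no longer separate were Eef1a1, Eif4e and Eif5b. The 5 higher members were Eef1d, Eef2k, Eif1ad, Eif1a and Eif2b1. The 13 lower ones were Eef1g, Eef1a1, Eif5, Eif2b2, Eif3d, Eif4a2, Eif4e, Eif4g3, Eif4g1, Eif4b, Eif4ebp3, Eif4enif1 and Eif5b.

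**Figure D1:**
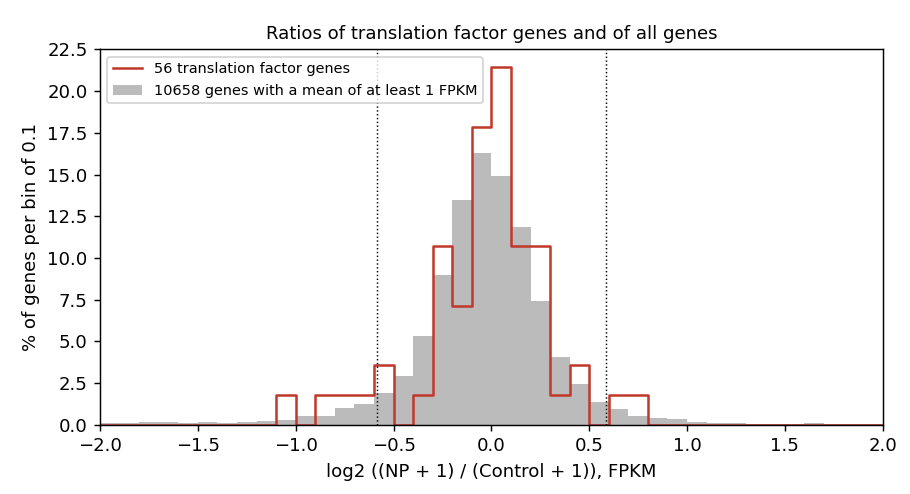
Percent of genes in bins of 0.1 of log2((NP + 1)/(Control + 1)), for the 56 factor genes (red line) and for the 10658 genes averaging 1 FPKM or more (grey bars); dotted lines mark 1.5-fold. The factor genes centre on 0.01 and all genes on −0.03, with a few factor genes beyond each dotted line.

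Elongation factors were the most abundant members. Eef1a1, which encodes the factor that carries aminoacyl-tRNA to the ribosome, came first at 1371 FPKM in NP and 1509 FPKM in Control. Eef2, the translocase, was second at 595 FPKM in NP and 635 FPKM in Control. The next was Eef1b2, a subunit that exchanges the nucleotide on eEF1A, at 216.0 FPKM in NP and 217.6 FPKM in Control. The eEF1 genes alone held 40.2% of the members' FPKM in NP and 40.5% in Control, and eIF3 held 12.5% and 11.6% in the same order. The least abundant member was Eif2c2, with a mean of 2.17 FPKM. Just outside the limit was Eif2c4, with a mean of 0.994 FPKM, at 0.949 FPKM in NP and 1.04 FPKM in Control. The other genes below the limit were Eif2c3, at 0.920 FPKM in NP and 0.940 FPKM in Control, and Eif4e3, Eif5a2, Eef1a2, Eif4e1b, Eif2c5 and a second identifier named Eef2k. Of these, Eef1a2, Eif4e1b, Eif2c5 and the second Eef2k identifier were listed at 0 in both libraries. Eef1a2 is the eEF1A form of muscle and neurons.

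**Figure D2:**
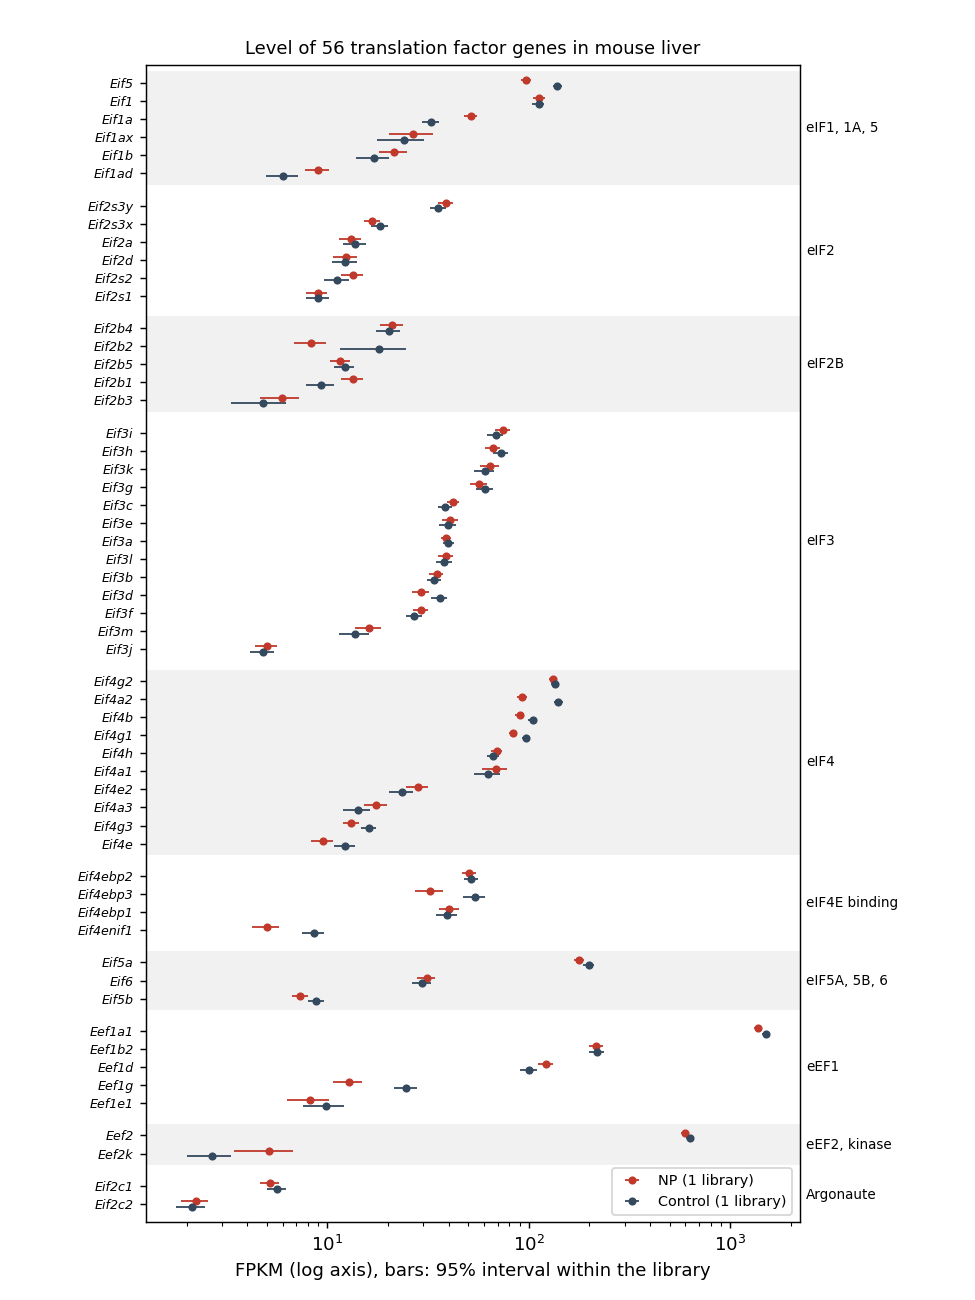
FPKM of each of the 56 genes on a log axis, grouped by role and ordered by mean, NP in red and Control in dark blue, 1 library each, with bars for the 95% interval within the library. Eef1a1 (1371 FPKM in NP, 1509 in Control) and Eef2 (595 and 635) stand apart from all others, and Eif3j lies below the other eIF3 subunits.

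Factors of start codon recognition lay in both directions. The 6 genes grouped here under eIF1, eIF1A and eIF5 include Eif1ad, which was placed there by its name. Of the 6, 5 had ratios above 0, and the median log2 ratio of the group was 0.24. Eif1a, which encodes a form of eIF1A, the factor that stabilises the scanning small subunit, lies at chr18:46757358-46769879 (mm9). It had 51.5 FPKM (47.6 to 55.5) in NP against 32.7 FPKM (29.5 to 35.9) in Control, 1.58-fold higher with separate intervals. The transcripts behind it moved alike, with 29.0 and 22.5 FPKM in NP against 16.7 and 16.0 FPKM in Control for its 2 protein-coding rows. The X-linked gene of the same factor, Eif1ax, had 26.8 FPKM in NP and 24.0 FPKM in Control, and its intervals overlapped. Most of that level lay in a row of 416 nt annotated as a retained intron. The protein-coding row of Eif1ax had 6.82 FPKM in NP and 5.97 FPKM in Control, also with overlapping intervals. Eif1ad, named for its eIF1A domain, had 8.96 FPKM in NP against 6.05 FPKM in Control. Its ratio was 1.48 on plain FPKM and its log2 ratio on FPKM + 1 was 0.50. It was thus under the size rule, and its intervals were separate.

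Eif5 encodes the protein that activates GTP hydrolysis by eIF2, and it was the lowest of the group. It had 97.1 FPKM (91.8 to 102) in NP against 138.7 FPKM (132 to 146) in Control, a log2 ratio of −0.51 that did not reach 1.5-fold. The 2 protein-coding rows of Eif5 were both lower, at 61.5 and 33.6 FPKM in NP against 77.3 and 61.4 FPKM in Control. Eif1, which guards the choice of start codon, had 112.9 FPKM in NP and 112.0 FPKM in Control. Its close relative Eif1b had 21.5 FPKM in NP and 16.97 FPKM in Control. Neither differed beyond its intervals.

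No gene of the eIF2 group was past 1.5-fold, and all 6 pairs of intervals overlapped. Eif2s1 encodes the alpha subunit that PERK phosphorylates, and it had 8.93 FPKM in NP and 9.01 FPKM in Control. Eif2s2, the beta subunit, had the highest ratio of the group, with 13.3 FPKM in NP and 11.2 FPKM in Control and a log2 ratio of 0.23. The gamma subunit, which binds GTP and the initiator tRNA, has an X-linked and a Y-linked gene in the mouse. Eif2s3x had 16.7 FPKM in NP and 18.2 FPKM in Control, the lowest ratio of the group at −0.12. Eif2s3y had 38.8 FPKM in NP and 35.5 FPKM in Control, so as listed the Y-linked gene had the higher FPKM in both libraries. Eif2a and Eif2d, which encode initiation factors outside the eIF2 complex, had log2 ratios of −0.07 and 0.01.

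The gamma subunit genes also show how far the counted reads can be assigned. In the GENCODE M21 annotation (GRCm38), the processed pseudogene Gm2223 is identical to the Eif2s3x coding sequence over 1347 aligned bases. Eif2s3y shares 86.3% of 1416 bases with it. Bases 664 to 753 of the Eif2s3x coding sequence are given because they hold both cases, with capitals at positions where the 3 sequences are not all the same.
Eif2s3x: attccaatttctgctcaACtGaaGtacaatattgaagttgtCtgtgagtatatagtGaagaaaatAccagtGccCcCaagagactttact
Gm2223: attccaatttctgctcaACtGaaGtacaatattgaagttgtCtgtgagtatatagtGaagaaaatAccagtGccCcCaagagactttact
Eif2s3y: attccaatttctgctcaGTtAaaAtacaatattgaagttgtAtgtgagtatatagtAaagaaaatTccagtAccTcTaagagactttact
Eif2s3y differs from Eif2s3x at 10 of these 90 positions and Gm2223 at 0. The deposited tables list Gm2223 at 26.5 FPKM in NP and 27.7 FPKM in Control, above Eif2s3x itself in both. The sources used here do not say how reads were shared between the gene and the copy, so the level of Eif2s3x is uncertain. With the copy added, it had 43.2 FPKM in NP and 45.9 FPKM in Control, a log2 ratio of −0.09, and then lay above Eif2s3y in both libraries.

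eIF2B, the complex that reloads eIF2 with GTP, had 1 gene past the size rule. Eif2b2, the beta subunit at chr12:86560431-86567578 (mm9), had 8.31 FPKM (6.79 to 9.82) in NP against 18.02 FPKM (11.6 to 24.5) in Control, 2.17-fold lower. That was the lowest log2 ratio among all members, −1.03. The difference lay in 1 row of 338 nt annotated as a retained intron, listed at 0 in NP and at 10.97 FPKM in Control. Of its 338 bases, 7 lie outside the exons of a single chosen protein-coding transcript of the gene. In the protein-coding row Eif2b2 had 8.31 FPKM in NP and 6.84 FPKM in Control, so the direction turned. The other eIF2B genes were at most 1.5-fold apart. Eif2b1, the alpha subunit, was the highest of them with 13.4 FPKM in NP against 9.34 FPKM in Control and separate intervals. Eif2b5, the catalytic epsilon subunit, had 11.6 FPKM in NP and 12.2 FPKM in Control. The intervals of Eif2b5, and those of the delta and gamma subunit genes Eif2b4 and Eif2b3, overlapped.

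eIF3, the scaffold on the small ribosomal subunit, hardly differed between the libraries. Log2 ratios of its 13 genes ran from −0.30 to 0.21 with a median of 0.05, none was past 1.5-fold, and 12 of 13 pairs of intervals overlapped. The summed level was 536.1 FPKM in NP and 533.8 FPKM in Control, a ratio of 1.00. The one separate pair was that of Eif3d, a subunit that can bind the cap of some messages, with 29.2 FPKM (26.4 to 32.0) in NP against 36.1 FPKM (32.8 to 39.4) in Control. Eif3m had the highest ratio, with 16.1 FPKM in NP and 13.8 FPKM in Control. The core subunits Eif3a, at 38.9 FPKM in NP and 39.9 FPKM in Control, and Eif3c, at 42.0 FPKM in NP and 38.5 FPKM in Control, did not differ beyond their intervals.

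Over all 13 eIF3 genes the highest level was 14.8 times the lowest in NP and 15.1 times in Control. The eIF2 genes spanned 4.34-fold in NP and 3.94-fold in Control. The eIF2B genes spanned 3.53-fold in NP and 4.24-fold in Control, so eIF3 was not the narrowest group. The 12 eIF3 subunits other than Eif3j spanned 16.1 to 74.3 FPKM in NP and 13.8 to 72.4 FPKM in Control, a 4.62-fold and a 5.26-fold range. Eif3j, the loosely bound subunit, was listed far below at 5.01 FPKM in NP and 4.79 FPKM in Control. A second protein-coding gene with the same coding sequence over 781 aligned bases, Gm9781 in the tables, was listed at 22.5 FPKM in NP and 22.9 FPKM in Control. The low level of Eif3j is therefore that of 1 of 2 genes whose reads may be shared.

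The eIF4 genes, for cap binding, scaffold and helicase, held 5 of the 13 separate lower intervals and no higher one. Over all genes, 9.51% had separate lower intervals and 7.65% separate higher ones. The eIF4 genes had a median level of 66.9 FPKM against 8.18 FPKM over all genes. The part of abundance in their count was not tested. Of the 10 eIF4 genes, 6 had ratios below 0. The median log2 ratio was −0.12, and it was 0.05 when each gene was represented by its row of highest mean FPKM alone. The separate ones were Eif4a2, Eif4b, Eif4e, Eif4g1 and Eif4g3, and of them only Eif4a2 was past 1.5-fold. Eif4a2, a form of the helicase that unwinds the leader of the message, lies at chr16:23107517-23114209 (mm9). It had 92.8 FPKM (87.5 to 98.1) in NP against 140.2 FPKM (133 to 148) in Control, 1.51-fold lower. Its 2 protein-coding rows at or above 0.5 FPKM were both lower, at 57.6 and 29.5 FPKM in NP against 98.1 and 42.1 FPKM in Control. A row spanning the whole gene was listed at 5.67 FPKM in NP and at 0 in Control. The call stands on the edge of the size rule and was lost when NP was scaled to the same median ratio or upper quartile, shifts of 0.03 in log2. It was also lost when FPKM were weighted by row length, with a log2 ratio of −0.40.

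The cap-binding protein gene Eif4e had 9.49 FPKM (8.29 to 10.7) in NP against 12.2 FPKM (10.7 to 13.7) in Control, with a narrow gap between the intervals. Eif4e2, whose protein also binds the cap and is known as a repressor, had 28.1 FPKM in NP and 23.5 FPKM in Control. The highest ratio of the group was that of Eif4a3, a helicase of the exon junction complex, with 17.5 FPKM in NP and 14.1 FPKM in Control and a log2 ratio of 0.29. The intervals of Eif4e2 and Eif4a3 overlapped, as did those of Eif4h, a helper of the helicase. Eif4g2, a scaffold related to eIF4G that lacks the site for eIF4E, had 131.3 FPKM in NP and 134.6 FPKM in Control.

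Eif4g1, the main scaffold, had 83.3 FPKM (79.5 to 87.0) in NP against 96.99 FPKM (92.9 to 101) in Control. Its retained-intron row of 5004 nt was listed at 0 in NP and at 18.3 FPKM in Control. In protein-coding rows it had 83.3 FPKM in NP and 78.7 FPKM in Control, a log2 ratio of 0.08. A protein-coding row of 5440 nt was also listed at 0 in NP, against 20.9 FPKM in Control. The protein-coding rows of 5394 and 5507 nt had 52.3 and 30.9 FPKM in NP against 37.9 and 19.9 FPKM in Control. Summed by kind of row, the lower total of Eif4g1 lay in the retained intron. How reads were divided among these rows was not tested.

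Eif4a1, the other helicase gene, had 68.6 FPKM in NP and 62.7 FPKM in Control, with overlapping intervals. None of that lay in a protein-coding row in either library: 61.1 FPKM in NP and 58.3 FPKM in Control lay in transcripts of other kinds, and the rest in the span of the whole gene. The processed pseudogene Eif4a-ps4 differs from the Eif4a1 coding sequence at 1 of 1218 bases, and the tables list it at 218.3 FPKM in NP and 198.3 FPKM in Control. It held 76.1% of the sum of gene and copy in NP and 76.0% in Control. Bases 489 to 578 of the coding sequence (GENCODE M21) are given because they hold that single difference, with Eif4a2 as the related gene and capitals where the 3 are not all the same.
Eif4a1: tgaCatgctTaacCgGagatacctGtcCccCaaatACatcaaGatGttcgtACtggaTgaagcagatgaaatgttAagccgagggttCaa
Eif4a-ps4: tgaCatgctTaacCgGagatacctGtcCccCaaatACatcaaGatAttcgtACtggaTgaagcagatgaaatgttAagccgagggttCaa
Eif4a2: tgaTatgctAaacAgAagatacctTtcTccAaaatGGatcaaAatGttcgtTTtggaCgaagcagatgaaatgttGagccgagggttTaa
Eif4a2 differs from Eif4a1 at 15 of the 90 positions and shares 78.6% of 1213 aligned bases, so the genes can be told apart along most of their length, while Eif4a1 and its copy nearly cannot. The sum of Eif4a1 and the copy was 286.9 FPKM in NP and 261.0 FPKM in Control, a log2 ratio of 0.14. The level of Eif4a1 in the tables is uncertain for this reason.

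Proteins that bind eIF4E and keep it from the scaffold include the 4E-BPs. Of the 4 genes in this group, 2 were past 1.5-fold, both lower. Eif4ebp1 had 40.3 FPKM in NP and 39.4 FPKM in Control, and Eif4ebp2 had 50.5 FPKM in NP and 51.8 FPKM in Control. Both of these 4E-BP genes had overlapping intervals and log2 ratios of 0.03 and −0.03. Eif4ebp3, at chr18:36823714-36825571 (mm9), had 32.4 FPKM (27.4 to 37.3) in NP against 53.9 FPKM (47.3 to 60.6) in Control, 1.67-fold lower with separate intervals. Eif4ebp3 overlaps Ankhd1, which had 14.9 FPKM (13.2 to 16.5) in NP against 3.54 FPKM (3.10 to 3.99) in Control. In GENCODE M21 a protein-coding transcript of Ankhd1 shares 203 bases of the Eif4ebp3 coding sequence without a difference. The overlapping genes lay in opposite directions, and the part of shared reads in either difference was not tested.

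Eif4enif1 encodes a protein that carries eIF4E into the nucleus and represses bound messages. It lies at chr11:3102395-3144591 (mm9) and had 4.997 FPKM (4.23 to 5.77) in NP against 8.55 FPKM (7.46 to 9.64) in Control, 1.71-fold lower. All of it lay in 1 protein-coding row. Drg1, which overlaps it, had 29.2 FPKM in NP and 32.4 FPKM in Control with overlapping intervals.

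Late steps of initiation differed by little. Eif5a, whose protein carries hypusine and eases peptide bond formation, had 178.0 FPKM (167 to 189) in NP and 198.8 FPKM (186 to 211) in Control. Its rows were listed unevenly: a row of 775 nt was at 0 in NP and at 67.4 FPKM in Control, while the row of 1343 nt was at 178.0 FPKM in NP and 131.4 FPKM in Control. Weighted by row length, the log2 ratio of Eif5a was 0.06 instead of −0.16. Eif5b, the GTPase that joins the ribosomal subunits, had 7.33 FPKM in NP against 8.81 FPKM in Control. Its intervals were separate by a narrow gap. Eif6, which keeps the large subunit apart until it is ready, had the highest ratio of the group with 31.2 FPKM in NP and 29.6 FPKM in Control.

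Among the eEF1 genes, 4 of 5 had ratios below 0, with a median of −0.14, and 1 of the 4, Eef1b2, lay at −0.01. Eef1a1 had 1371 FPKM (1312 to 1430) in NP against 1509 FPKM (1444 to 1574) in Control. The intervals were separate although the log2 ratio was only −0.14, and they overlapped when NP was scaled to the same median ratio or upper quartile. Eef1d, an exchange subunit, had the highest ratio, 0.27, with 121.5 FPKM (112 to 131) in NP against 100.2 FPKM (90.8 to 110) in Control. Eef1e1, which is part of a complex of tRNA synthetases, had 8.24 FPKM in NP and 9.81 FPKM in Control with overlapping intervals.

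Eef1g, the gamma subunit of the exchange complex at chr19:9041531-9052969 (mm9), was the lowest of the eEF1 genes. It had 12.8 FPKM (10.7 to 14.9) in NP against 24.6 FPKM (21.3 to 27.8) in Control, 1.92-fold lower. Most of the difference lay in a row of 1272 nt annotated as a retained intron, at 4.53 FPKM in NP and 13.8 FPKM in Control. In that row 103 bases lie outside the exons of a single chosen protein-coding transcript of the gene. The protein-coding row had 7.21 FPKM in NP and 9.56 FPKM in Control, a log2 ratio of −0.36, so the direction held there without reaching 1.5-fold. Eef1b2 had most of its FPKM in transcripts annotated for nonsense-mediated decay, 187.6 FPKM in NP and 192.4 FPKM in Control, and 28.4 FPKM in NP and 25.3 FPKM in Control in its protein-coding row.

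Eef1a1 is itself surrounded by near-identical copies. The processed pseudogene Gm13456 differs from its coding sequence at 19 of 1361 aligned bases, and the tables list it at 737.6 FPKM in NP and 829.5 FPKM in Control. Bases 74 to 163 of the Eef1a1 coding sequence (GENCODE M21) show how few positions separate the pair, with capitals at the position that differs.
Eef1a1: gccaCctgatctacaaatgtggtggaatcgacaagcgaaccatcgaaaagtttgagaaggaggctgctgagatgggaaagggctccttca
Gm13456: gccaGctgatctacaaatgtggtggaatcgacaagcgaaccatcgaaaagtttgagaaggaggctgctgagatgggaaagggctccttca
Within this window 1 of 90 bases differs. The 3 copies of Eef1a1 at 1 FPKM or more summed to 783.7 FPKM in NP and 912.1 FPKM in Control. Gene and copies together gave a log2 ratio of −0.17, near the −0.14 of Eef1a1 alone.

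Eef2 had 595 FPKM (569 to 621) in NP and 635 FPKM (607 to 663) in Control, with overlapping intervals. Eef2k, the kinase that phosphorylates eEF2 and slows elongation, lies at chr7:127986345-128050733 (mm9). It had 5.11 FPKM (3.45 to 6.77) in NP against 2.67 FPKM (2.01 to 3.33) in Control, 1.91-fold higher with separate intervals. The difference lay in a retained-intron row of 800 nt, at 2.59 FPKM in NP and listed at 0 in Control. Of that row, 10 bases lie outside the exons of a single chosen protein-coding transcript of the gene. In protein-coding rows Eef2k had 2.49 FPKM in NP and 2.65 FPKM in Control, a log2 ratio of −0.066.

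The symbols Eif2c1 and Eif2c2 match the naming rule but are older names of Argonaute genes, which act in microRNA silencing and are not translation factors. Eif2c1 had 5.19 FPKM in NP and 5.62 FPKM in Control. Eif2c2 had 2.22 FPKM in NP and 2.12 FPKM in Control, and both pairs of intervals overlapped. Without them the counts of higher and lower members were the same.

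**Figure D3:**
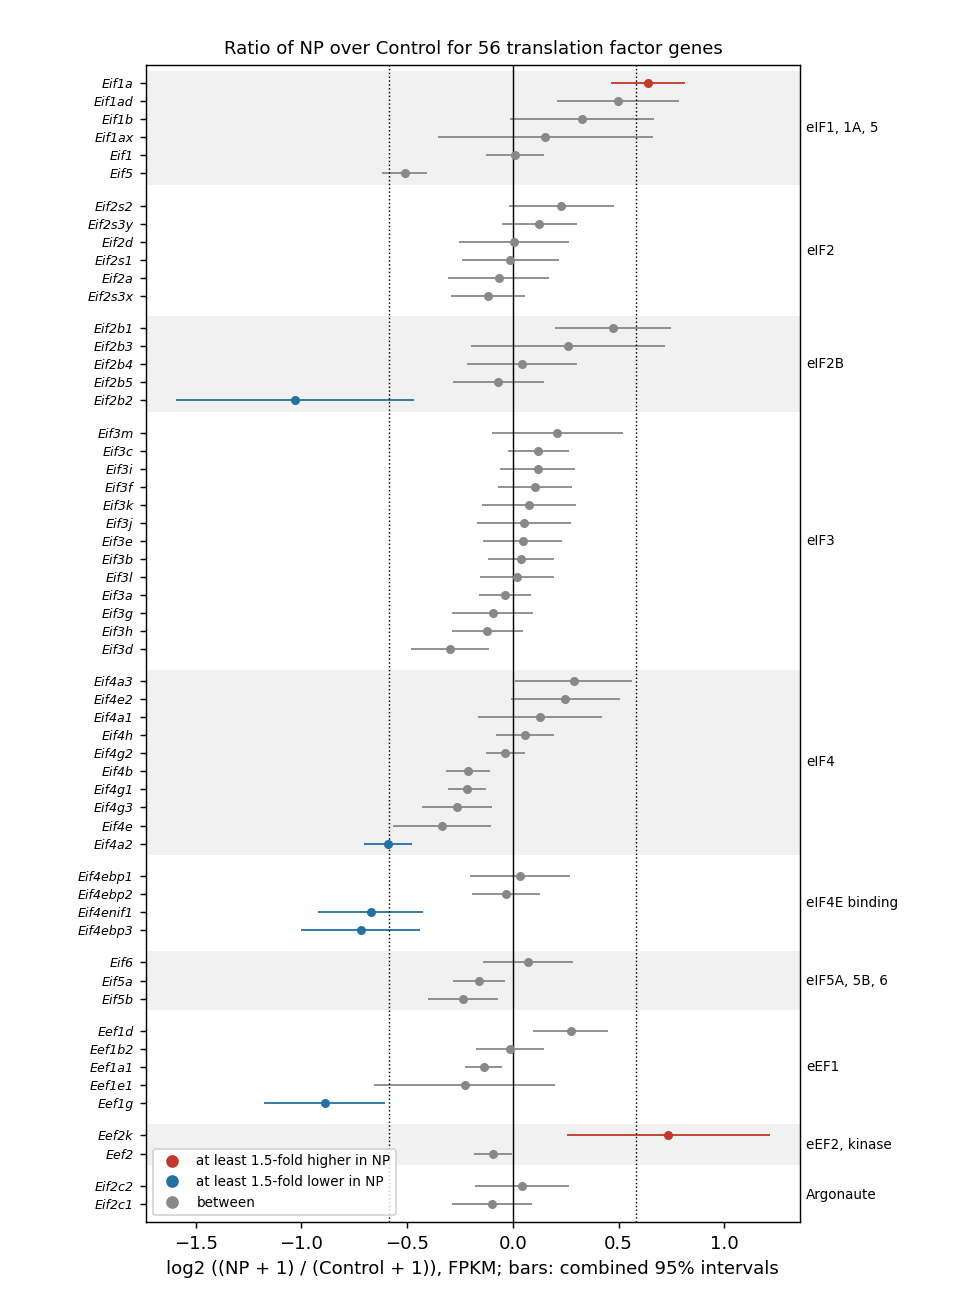
Log2((NP + 1)/(Control + 1)) of each of the 56 genes, grouped by role and ordered by ratio, with bars that combine the 95% intervals of the libraries; dotted lines mark 1.5-fold. Eif1a and Eef2k lie beyond the upper line, and Eif2b2, Eef1g, Eif4ebp3, Eif4enif1 and Eif4a2 beyond the lower one, while the 13 eIF3 genes stay between −0.30 and 0.21.

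Of the 7 members past 1.5-fold, Eif2b2, Eef1g and Eef2k were so through rows annotated as retained introns. When only protein-coding rows by GENCODE M21 were summed, Eif1a, Eif4a2, Eif4ebp3 and Eif4enif1 were still past the rule. Eif4g3, a scaffold with many listed transcripts, then joined them with a log2 ratio of −0.71, against −0.27 over all rows. That setting also left out rows whose identifier is not in GENCODE M21, which held 1.85% of the members' FPKM in NP and 1.87% in Control. Among them was the most abundant row of Eif4g3, at 8.33 FPKM in NP and 7.48 FPKM in Control. The ratio of −0.71 is thus not that of all coding transcripts of Eif4g3. Protein-coding rows held 91.1% of the members' FPKM in NP and 90.9% in Control. Other transcripts held 6.41% in NP and 6.78% in Control, so rows of these other kinds were a small share of the whole. That whole is weighted by Eef1a1 and Eef2, which lay in protein-coding rows alone. Eef1b2, Eif1ax and Eif4a1 had most of their FPKM in other transcripts in both libraries. At the level of rows, 33 members had 1 row at 0.5 FPKM or more and 23 had several. In 10 members a transcript row was listed at 0 in 1 library only, 8 rows in NP and 4 in Control. The rows of a gene share most of their exons, and the part of how reads were divided among them was not tested.

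**Figure D4:**
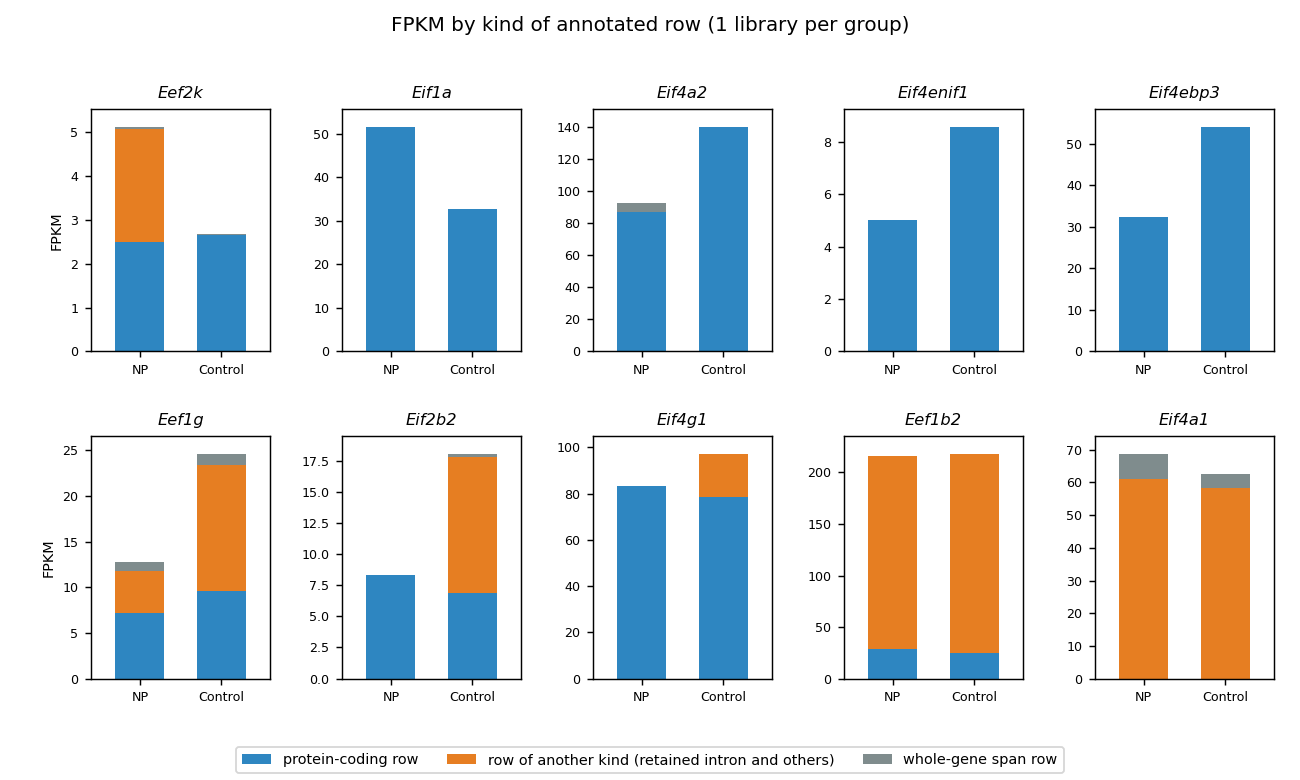
FPKM of the 7 genes past 1.5-fold and of Eif4g1, Eef1b2 and Eif4a1, stacked by the GENCODE M21 kind of the deposited row, with NP left of Control in each panel and 1 library per bar. Eef2k, Eef1g, Eif2b2 and Eif4g1 differ mainly in the orange part, and Eif1a, Eif4a2, Eif4enif1 and Eif4ebp3 in the blue part.

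Near-identical copies affected 17 of the 56 members at a limit of 95% identity over 50% of the coding sequence. For 10 of them the tables list pseudogene copies at 1 FPKM or more, 14 copies in all. For 5 of these members, Eif1, Eif2s2, Eif2s3x, Eif3m and Eif4a1, the copies summed above the gene itself in both libraries. Eif1 had 112.9 FPKM in NP and 112.0 FPKM in Control, while its 3 copies summed to 248.6 FPKM in NP and 212.7 FPKM in Control. Eif2s2 had a copy, Gm9892, at 36.6 FPKM in NP and 38.2 FPKM in Control. The copy of Eif3m, Gm7658, had 32.3 FPKM in NP and 34.1 FPKM in Control. The Eif3e copy, Eif3s6-ps2, had 29.1 FPKM (14.5 to 43.6) in NP and 41.9 FPKM (26.0 to 57.7) in Control, with overlapping intervals. It is listed over the short span chr18:90481217-90481435 (mm9) and differs from the Eif3e coding sequence at 54 of 1337 aligned bases. Adding it turned the log2 ratio of Eif3e to −0.22, against 0.05 alone, so that turn rests on a copy with wide intervals. The listed levels of these genes are uncertain as far as reads were shared with their copies, and that part was not tested.

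Of the 14 pseudogene copies, 12 had ratios below 0, while of their 10 genes 5 did. The copies had 5 separate lower intervals and 1 separate higher, that of Eif4a-ps4, beside 9.51% lower and 7.65% higher over all genes. The 5 lower ones included all 3 copies of Eef1a1. The intervals of Eef1a1 itself were separate and lower as listed, but not with NP scaled to the same median ratio or upper quartile. The Eef2 copy Gm13050 had 36.9 FPKM (33.5 to 40.4) in NP against 73.0 FPKM (67.9 to 78.1) in Control, while Eef2 itself had a log2 ratio of −0.09. The Eif5a copy Eif5al3-ps had 13.96 FPKM (9.52 to 18.4) in NP against 27.8 FPKM (21.4 to 34.1) in Control. The difference in direction between copies and genes was not tested. With all copies added to their genes, the same 7 members were past 1.5-fold, since none of the 7 has such a pseudogene copy.

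**Figure D5:**
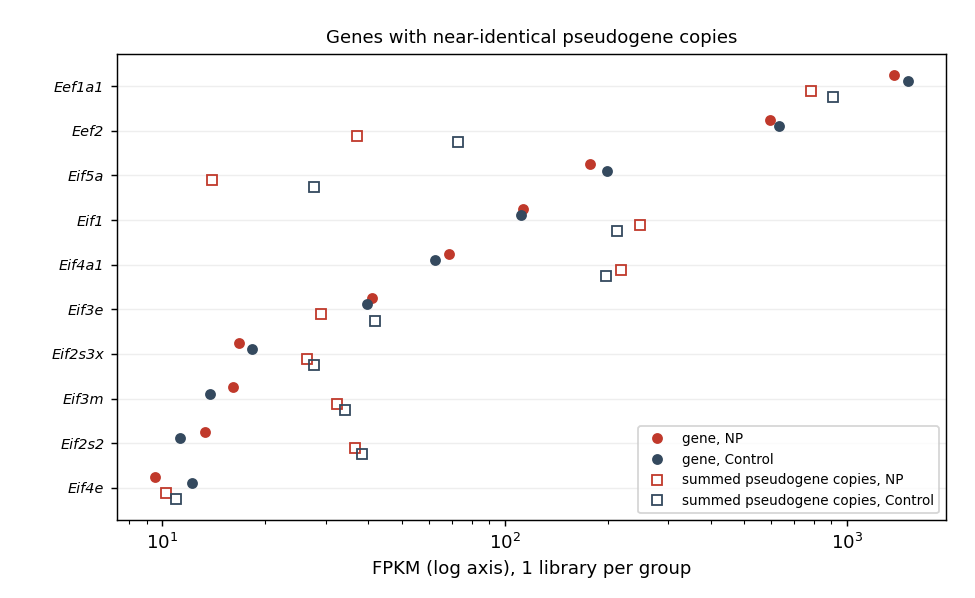
FPKM on a log axis of the 10 genes with near-identical pseudogene copies at 1 FPKM or more (filled circles) and of their summed copies (open squares), NP in red and Control in dark blue, 1 library each. The squares lie right of the circles for Eif1, Eif4a1, Eif2s3x, Eif3m and Eif2s2, and the copies of Eef2 and Eif5a are lower in NP.

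Around the factors, 60 of 62 listed genes of translational control, termination and mitochondrial translation were measured at a mean of 1 FPKM or more. Past 1.5-fold were 2 of the 60 higher, beside 3.67% of all genes, and 1 lower, beside 5.79% of all genes, so these counts are no result about the list. The other 57 lay between, and the median log2 ratio was −0.06. The higher ones were Eif2ak3, which encodes PERK, with 8.73 FPKM (7.80 to 9.67) in NP against 4.20 FPKM (3.54 to 4.86) in Control, and Gcn1l1, an activator of the kinase GCN2, with 7.96 FPKM in NP against 4.71 FPKM in Control. Of the other eIF2 alpha kinases, Eif2ak1, the haem-regulated kinase, lay in the opposite direction, while the intervals of Eif2ak2 and Eif2ak4 overlapped. Eif2ak1 had 9.60 FPKM in NP against 13.2 FPKM in Control with separate intervals, while Eif2ak2 had 3.04 FPKM in NP and 3.20 FPKM in Control. Eif2ak4, the gene of GCN2 itself, had 1.90 FPKM in NP and 1.82 FPKM in Control. Of the eIF2 phosphatase regulators, Ppp1r15b had 21.7 FPKM in NP against 27.6 FPKM in Control, and Ppp1r15a was listed at 0 in both.

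All 14 genes of mTORC1 and its kinases lay between, Mtor itself at 10.3 FPKM in NP and 11.4 FPKM in Control. All 8 poly(A)-binding and helicase cofactors had ratios below 0, with a median of −0.22, and none was past 1.5-fold. The median over all genes was −0.03, with quartiles of −0.20 and 0.14. Only 1 cofactor, Paip1, had separate intervals, with 32.0 FPKM in NP against 39.7 FPKM in Control. Of the 8 genes for hypusine and diphthamide synthesis and selenocysteine insertion, 6 had ratios above 0, with a median of 0.26 and no separate interval. Guf1, a mitochondrial elongation factor, was the lower one past the rule with 3.70 FPKM in NP against 6.28 FPKM in Control.

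Hepatocyte markers dominated both libraries, with 6 genes summing to 45320 FPKM in NP and 33781 FPKM in Control. Of 27 markers of other liver and blood cells, 21 had ratios below 0 and 5 above, and they summed to 175.7 FPKM in NP and 217.1 FPKM in Control. All 6 Kupffer cell markers were below 0, summing to 13.2 FPKM in NP and 26.7 FPKM in Control, as were all 5 of sinusoidal endothelium, summing to 49.2 FPKM in NP and 68.8 FPKM in Control. Clec4f was the largest part of the Kupffer sum and had separate intervals, while those of Emr1, Cd68, Csf1r, Marco and Vsig4 overlapped. Clec4g was the largest part of the endothelial sum. It and Kdr had separate intervals, while those of Stab2, Pecam1 and Lyve1 overlapped. The 3 erythroid markers summed to 45.6 FPKM in NP and 38.4 FPKM in Control, with 1 ratio above 0 and 1 below. The 1 below was Slc4a1, listed at 0 in NP and at 0.0472 FPKM in Control. In bulk tissue, fewer cells of a type and less RNA per cell cannot be told apart. The part of these markers in the differences of the translation factors was not tested.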

How the data were processed

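Liver RNA of CD-1 mice was extracted with Trizol and made into libraries with a TruSeq kit from total RNA, per the labels' protocols. The submitters' processing notes name TopHat2 2.1.0, Cufflinks 2.2.1.0 and mm9; settings, strandedness and fragment numbers are not stated in the sources used here. The deposited values are FPKM per transcript or gene span with a 95% interval, and read coverage, a signal not scaled to library size, per the file headers. FPKM were summed per gene identifier and interval widths combined in quadrature, leaving out rows at 0, so a gene at 0 has an interval of no width. Ratios were log2((NP + 1)/(Control + 1)), which understates differences of low genes. Genes averaging 1 FPKM or more were compared by size only, at 1.5-fold, beside the share of all such genes.

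Kinds of row were looked up by transcript identifier in GENCODE M21, whose coordinates were not used; coding sequences were aligned to its transcripts with BLAST 2.17.0. Genes named were those past 1.5-fold, the highest and lowest ratio of each role group, fixed anchors for each complex, the 3 most abundant members, genes next to the limits, and those whose rows, overlaps or copies are described; the last of these were chosen after their values were seen. The members, lists and rules were chosen with earlier results of these data known. The values of 1 cell type marker are not reported here. Scripts ran in Python 3.11.15 (Biopython 1.88, pandas 2.3.3, matplotlib 3.10.9, numpy 2.4.6).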

Additional observations from a re-analysis of the deposited data

How the results depend on the processing

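The same 7 members were past 1.5-fold with a pseudocount of 0.1, with none, with no filter on level, with NP scaled to the same total FPKM, with transcript rows only, and with an OK status in all rows. Scaling NP to the same median ratio or to the same upper quartile kept 6 of 7, all but Eif4a2. Using each gene's row of highest mean FPKM kept 5 of 7, lost Eef2k and Eif2b2, and added Eif2b3 at 0.64, for 2 higher and 4 lower. Separate intervals then numbered 7 higher and 10 lower; under both scalings and in protein-coding rows they numbered 5 higher and 10 lower. Raising the filter to a mean of 5 FPKM gave 1 higher member and 5 lower. A smaller size rule, 0.32 in log2, gave 5 higher and 7 lower, and a size rule of 2-fold gave 0 higher and 1 lower. Over 10070 genes with an OK status and a transcript of at least 300 nt, leaving out small RNAs, 3.64% were higher and 4.71% lower. Chosen after seeing the data were 4 more settings. With FPKM multiplied by row length there was 1 higher and 3 lower member, since rows that are short then weigh less; Eef2k, Eif2b2 and Eif4a2 lost the call. With protein-coding rows only there was 1 higher. Adding pseudogene copies or leaving out the Argonaute genes gave 2 higher and 5 lower. Eef2k turned to −0.15 in its row of highest mean FPKM and to −0.066 in protein-coding rows, and Eif2b2 to 0.25 in both. Of the single members' values under all alternatives, 697 moved by less than the combined interval, 23 moved further without a turn of a called value, and 4 turned. No paired analysis was possible because each group has 1 library. Within a library the upper limit of a member lay up to 32.5% above its value in NP and up to 35.8% in Control.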
